A study of Mus musculus with 24 samples.

Results

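The genes described here encode 9 enzymes of the mevalonate arm of cholesterol synthesis, namely Acat2, Hmgcs1, Mvk, Pmvk, Mvd, Idi1, Fdps, Fdft1 and Ggps1. They were picked by symbol from the 56205 genes of the count table, and they do not include every enzyme of this arm. The choice was made with the diet difference of this pathway already known, so the diet differences of the 9 genes below are a description and carry no test. All 9 were among the 17913 genes that passed the filter on low counts (at least 1 count in at least 12 libraries).

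Whole livers of C57BL/6J mice were profiled by RNA-Seq of poly(A)-selected RNA after 20 weeks on a high fat diet (FFD, 12 libraries) or its control diet (FFD_Ctrl, 12 libraries). Both groups had the same inbred strain and carried no engineered allele, and mice of both sexes were fed each diet, 6 per diet and sex. The methods of the study give an age of 8 to 10 weeks at the start of the diets, and list for C57BL/6J mice a diet with palm oil, fructose and cholesterol. The labels give neither the composition of the diet nor the sex of a library, and they number the libraries from replicate 1 to 12 in each diet.

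The mevalonate arm builds isoprenoids from acetyl-CoA in the cytosol and peroxisomes, and delivers squalene to the enzymes that make cholesterol. Hepatocytes are a main site of this synthesis in the body, and its genes are classical targets of SREBP2, a transcription factor that is held in the endoplasmic reticulum when membrane sterol is plentiful. Branches of the arm also supply farnesyl and geranylgeranyl groups for protein prenylation, the side chain of coenzyme Q and dolichol.

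Xist, the noncoding RNA made from the inactive X chromosome, split the 24 libraries into a pair of sets. It had 2664 to 6285 counts in replicates 1 to 6 of each diet and 0 to 3 counts in replicates 7 to 12, so each diet held 6 libraries of each set. The sets are named here by Xist alone, and any difference in handling between low and high replicate numbers cannot be told apart from them. The libraries held between 14468418 and 22112552 counts on genes. Levels are given as CPM, counts divided by a library's total after scaling with edgeR's TMM factors. These factors were 0.679 to 1.01 in control libraries and 0.994 to 1.34 in high-fat libraries. They also differed between the sets. On the high-fat diet they were 0.994 to 1.06 with high Xist counts and 1.12 to 1.34 with low counts. On the control diet they were 0.892 to 1.01 and 0.679 to 0.956 in the same order.

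Promoter sequence was looked up for these genes because their levels moved together between libraries. RefSeq entries (GRCm38.p6) matched 7 of the 9 members, all but Fdps and Fdft1, and the 250 bases before each listed start were searched on both strands. The motifs were TCACNCCAC and CACCCCAC, which are forms of the sterol regulatory element that SREBP2 binds and can overlap each other, CCAAT, the box bound by NF-Y, CACGTG, the E-box, and GGGCGG, the GC box. Below, bases outside annotated untranslated regions are shown for Hmgcs1, Acat2, Mvd and Ggps1. For Idi1 only short sites around CCAAT are shown. These lie before the listed start but inside the annotated gene, which starts at chr13:8885501, so they may include untranslated bases. All are given 5′ to 3′ on the strand of the gene, and capitals mark every motif found in the bases shown.
Hmgcs1, chr13:119690101-119690350, plus strand: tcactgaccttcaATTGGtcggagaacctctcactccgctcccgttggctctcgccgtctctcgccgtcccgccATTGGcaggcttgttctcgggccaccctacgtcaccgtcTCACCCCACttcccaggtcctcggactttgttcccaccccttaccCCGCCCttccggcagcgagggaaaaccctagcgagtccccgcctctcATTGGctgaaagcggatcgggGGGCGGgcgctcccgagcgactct
Acat2, chr17:12960748-12960975, minus strand: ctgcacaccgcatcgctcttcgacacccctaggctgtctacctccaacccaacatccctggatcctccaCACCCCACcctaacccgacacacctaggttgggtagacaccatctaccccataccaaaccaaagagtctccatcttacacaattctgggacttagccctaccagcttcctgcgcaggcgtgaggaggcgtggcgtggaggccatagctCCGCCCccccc
Mvd, chr8:122443423-122443672, minus strand: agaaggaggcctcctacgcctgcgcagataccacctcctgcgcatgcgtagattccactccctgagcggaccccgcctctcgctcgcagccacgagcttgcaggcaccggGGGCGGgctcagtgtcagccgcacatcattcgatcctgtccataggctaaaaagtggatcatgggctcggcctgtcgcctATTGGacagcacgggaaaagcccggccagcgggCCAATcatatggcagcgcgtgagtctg
Ggps1, chr13:14063489-14063738, minus strand: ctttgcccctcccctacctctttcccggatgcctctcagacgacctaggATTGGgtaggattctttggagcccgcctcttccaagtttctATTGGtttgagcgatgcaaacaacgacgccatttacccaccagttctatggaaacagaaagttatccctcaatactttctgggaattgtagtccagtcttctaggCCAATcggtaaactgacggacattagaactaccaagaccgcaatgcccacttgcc
Idi1, first site, chr13:8885549-8885578, plus strand: tgcctccagctgATTGGcgagcccgggcat
Idi1, second site, chr13:8885576-8885605, plus strand: catggtccaaggtgccATTGGctggcgacc

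Hmgcs1 held TCACNCCAC with its first base 137 bases before the start, a form found in 1.05% of the 32851 promoters of the same length in the table. Acat2 held CACCCCAC 181 bases before the start, and 2.58% of all promoters held that form. CACCCCAC was found in 2 of the 7 members, Acat2 and Hmgcs1, where it lies within the longer form, and TCACNCCAC in 1 of the 7. The other 5 had neither in this window. CCAAT was found in 6 of the 7 members, in all but Acat2, against 33.8% of all promoters. The 7 members had 8 windows, since Pmvk had 2 listed starts, and its second window held none of the motifs. Members are counted here by gene, and all promoters by window. Idi1 had CCAAT in reverse 45 and 14 bases before its listed start, and Ggps1 had it at 201, 160 and 55 bases. GGGCGG was found in 5 of the 7 members against 32.7% of all promoters, and CACGTG in 0 of the 7 against 6.02%. These are letter matches in short windows only.

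Of the 9 members, 7 were called lower on the high-fat diet and 0 higher, where a call needs an adjusted p of 0.01 or less together with a log2 fold change beyond 0.5 in either direction. Over all genes tested, 4.99% were called lower and 13.2% higher. All 9 members had a log2 fold change below 0, as had 52.8% of all genes. The median over the members was -0.68 on the log2 scale, and that over all genes was -0.03. With library totals in place of TMM 4 members were called lower, as Acat2 (-0.40), Mvk (-0.31) and Fdft1 (-0.23) lost the call. The largest differences lay in the middle of the arm, at Pmvk, Mvd, Idi1 and Fdps, and the smallest at the side branch to geranylgeranyl groups, Ggps1.

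**Figure D1:**
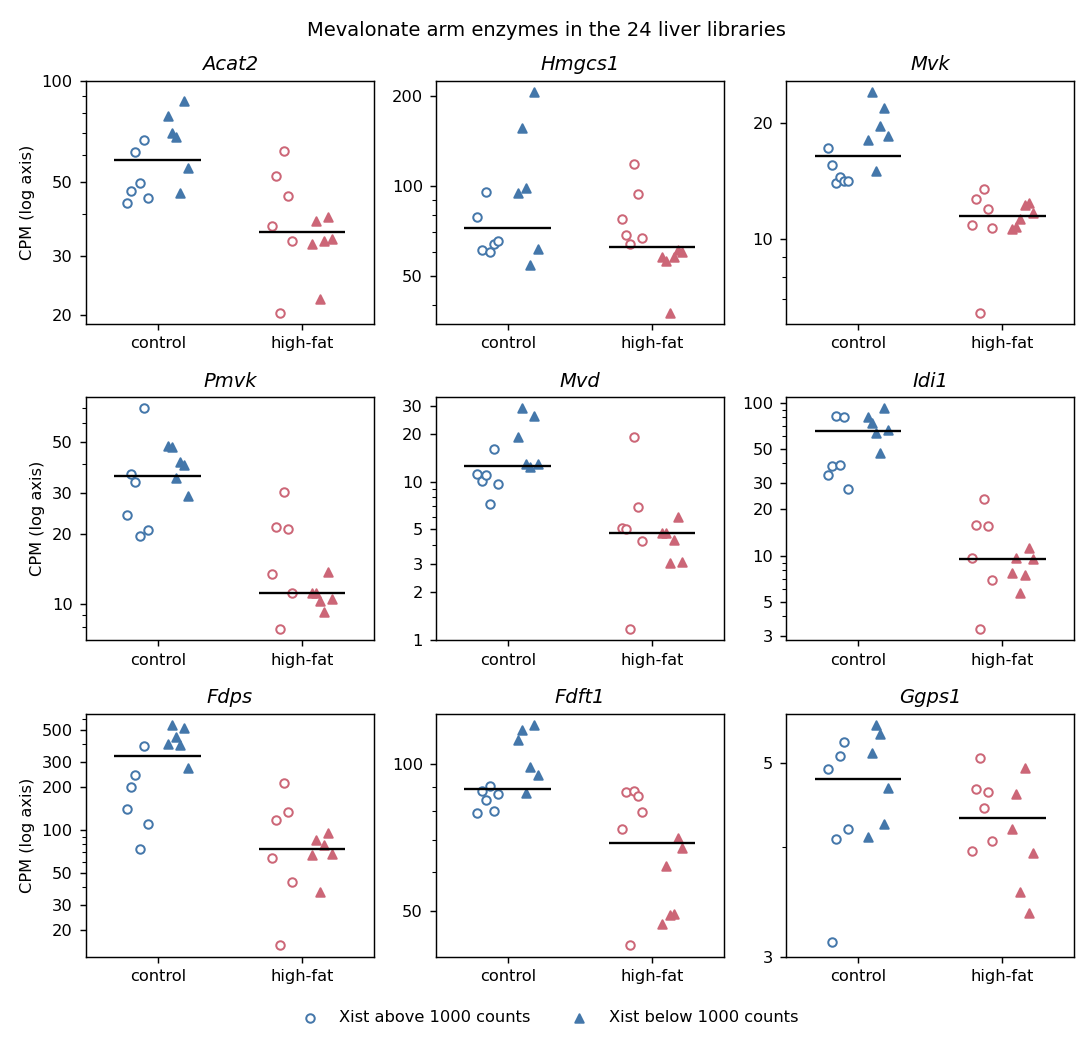
Each point is 1 of 24 liver libraries, with the level in CPM on a log axis, the diet on the horizontal axis, open circles for libraries with Xist above 1000 counts, triangles for those below, and a line at the median of 12 libraries. The levels of Idi1 and Mvk did not overlap between the diets, and those of Ggps1 covered nearly the same range in both.

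At the entry to the arm, Acat2 was called lower and Hmgcs1 was not. Acat2, which joins acetyl-CoA units into acetoacetyl-CoA in the cytosol (GRCm38, chr17:12942890-12960747, minus strand), had a lowest level of 43.3, a median of 58.2 and a highest level of 87.2 CPM on the control diet. On the high-fat diet its levels were 20.3, 35.3 and 61.7 CPM in the same order. In 9 of the 12 high-fat libraries Acat2 was below every control library, and the log2 fold change was -0.68 (SE 0.154). Hmgcs1, the cytosolic HMG-CoA synthase (chr13:119690379-119708260, plus strand), had levels of 54.2, 72.0 and 206 CPM on the control diet and 37.5, 62.4 and 118 CPM on the high-fat diet. The diets overlapped widely at Hmgcs1, whose log2 fold change of -0.42 (SE 0.205) was not called and was -0.25 without control replicate 11.

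The kinases and the decarboxylase that turn mevalonate into isopentenyl diphosphate were all called lower, Mvk not with library totals. Mvk, mevalonate kinase (chr5:114444269-114460591, plus strand), had levels of 13.9, 16.4 and 23.98 CPM on the control diet and 6.45, 11.5 and 13.5 CPM on the high-fat diet. Every high-fat library was below every control library, and the log2 fold change of Mvk was -0.61 (SE 0.106). Pmvk, phosphomevalonate kinase (chr3:89454541-89469013, plus strand), fell from 19.7, 35.6 and 69.6 CPM to 7.83, 11.2 and 30.4 CPM. All 12 high-fat libraries lay below the control median at Pmvk, and 9 of them below the lowest control library. Its log2 fold change was -1.37 (SE 0.218). Mvd, the decarboxylase that makes isopentenyl diphosphate (chr8:122433601-122443422, minus strand), had 7.22, 12.6 and 29.0 CPM on the control diet. Its levels on the high-fat diet were 1.17, 4.72 and 19.1 CPM, and 1 library, replicate 4, was above the control median. The log2 fold change of Mvd was -1.40 (SE 0.302).

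Idi1 showed the largest difference of the 9 genes. It encodes the isomerase that converts isopentenyl diphosphate into dimethylallyl diphosphate (chr13:8885501-8892451, plus strand). Idi1 had 27.2, 64.8 and 91.5 CPM on the control diet and 3.30, 9.52 and 23.2 CPM on the high-fat diet. The diets did not overlap, and the mean level on the high-fat diet was 17.4% of the control mean. Its log2 fold change was -2.53 (SE 0.258). Mvk and Idi1 were the 2 members without overlap between diets, a pattern that 0.402% of all genes showed in this direction.

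Fdps, which makes farnesyl diphosphate, was the member with the highest level per exon length and the widest spread between libraries of a diet on the log2 scale (chr3:89093588-89101959, minus strand). Its levels were 73.5, 332 and 547 CPM on the control diet and 15.6, 73.3 and 215 CPM on the high-fat diet. Among the high-fat libraries 12 of 12 were below the control median and 6 were below every control library. The log2 fold change of Fdps was -1.87 (SE 0.346). Fdft1, squalene synthase, commits farnesyl diphosphate to sterols (chr14:63145150-63179578, minus strand). Fdft1 had 79.3, 89.2 and 121 CPM on the control diet and 42.4, 69.0 and 88.2 CPM on the high-fat diet, with a log2 fold change of -0.51 (SE 0.121). That value lay just past the fold threshold, and the call was lost when any of 9 libraries was left out, namely high-fat replicates 3, 7, 8, 9, 10 and 12 and control replicates 7, 8 and 11. Ggps1, which takes farnesyl diphosphate to geranylgeranyl diphosphate and so away from sterols (chr13:14050659-14063488, minus strand), was not called. Its levels were 3.12, 4.79 and 5.53 CPM on the control diet and 3.36, 4.32 and 5.06 CPM on the high-fat diet. The log2 fold change of Ggps1 was -0.12 (SE 0.0985), and -0.07 without high-fat replicate 11.

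Per kilobase of annotated exon, Fdps stood highest among the 9 genes on the control diet, with 73.95 ± 38.0 CPM per kb (SD, n = 12), and Ggps1 lowest, with 0.984 ± 0.150. Mvk, at 6.43 ± 1.24 CPM per kb, was the neighbour above Ggps1, and this was the only adjacent step in that order where the libraries did not overlap. Idi1 was sixth in the order on the control diet, with 17.2 ± 6.32 CPM per kb. On the high-fat diet it was eighth, with 2.98 ± 1.55 CPM per kb, and there every neighbour in the order overlapped the next.

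The spread among libraries of the high-fat diet was not even. High-fat replicate 3 was the lowest of its diet for 7 of the 9 members, and high-fat replicate 4 was the highest for 8. The highest and lowest high-fat libraries differed by 16.3-fold at Mvd, by 13.8-fold at Fdps and by 7.04-fold at Idi1, but by 1.51-fold at Ggps1. Both replicates were from the set with high Xist counts. Without high-fat replicates 3 and 4 and control replicate 10, the library with the lowest TMM factor, 6 of the 9 members were called lower, and Fdft1 was the one lost, with a log2 fold change of -0.50.

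**Figure D2:**
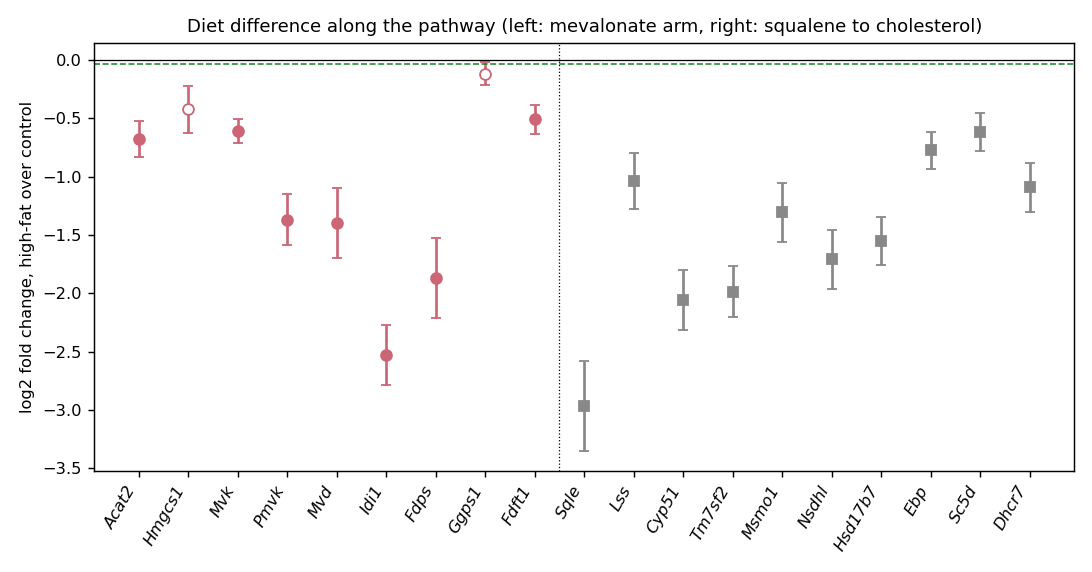
Log2 fold changes between the diets with their standard errors, for the 9 members in pathway order (circles) and the 10 enzymes from squalene to cholesterol that were called lower (squares), filled where called lower, with the median of all genes as a dashed line. Idi1 at -2.53 and Sqle at -2.97 were lowest, and Ggps1 and Hmgcs1 were not called.

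The diet difference went on past squalene. Of the 11 enzymes from squalene to cholesterol, 10 fell and 0 rose, and 8 fell with library totals, where Ebp (-0.47) and Sc5d (-0.35) lost the call. The median log2 fold change was -1.30 (p-values here and for the genes below are from edgeR, with Benjamini-Hochberg adjustment over all genes tested). Sqle, the squalene epoxidase that is often called the second controlled step of the pathway, fell from a mean of 44.3 to 5.67 CPM, a log2 change of -2.97 (SE 0.388, adjusted p = 3.26e-06). Cyp51, the lanosterol demethylase, fell by 2.06 on the log2 scale (SE 0.258, adjusted p = 1.98e-06), and Tm7sf2, a sterol reductase, fell by 1.99 (SE 0.217, adjusted p = 4.78e-07). The others that fell were Nsdhl at -1.71, Hsd17b7 at -1.55, Msmo1 at -1.30, Dhcr7 at -1.09, Lss at -1.04, Ebp at -0.77 and Sc5d at -0.62. These enzymes are known to be regulated together with the mevalonate arm and were listed with the pathway's difference known, so their count is no independent evidence of it.

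Enzymes that use mevalonate products outside sterols were mostly not called. Of 14 measured, 1 fell and 1 rose, with a median log2 fold change of -0.02, beside 4.99% lower and 13.2% higher over all genes. With limma-voom or with library totals 0 of the 14 were called lower. Rabggtb, a subunit of the transferase that prenylates Rab proteins, fell by 0.52 (SE 0.0927, adjusted p = 9.65e-05), and Fntb, the beta subunit of farnesyltransferase, rose by 0.57 (SE 0.0992, adjusted p = 7.25e-05). Among the 6 genes of SREBP2 and its processing, 2 fell and 0 rose. Scap, the escort protein of SREBP2, fell from 190 to 118 CPM (log2 change -0.69, adjusted p = 7.83e-05), and Insig1, which retains it in the endoplasmic reticulum and is itself a sterol-responsive gene, fell from 188 to 106 CPM (-0.83, adjusted p = 0.00591). Srebf2 itself had a log2 fold change of -0.31 (SE 0.102, adjusted p = 0.0162) and was not called.

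The mitochondrial route that uses the same first precursors for ketone bodies had 0 of 4 genes called by edgeR, DESeq2 or limma-voom, with an unadjusted p under 0.05 in edgeR for 1. Bdh1, which interconverts the ketone bodies, had a log2 fold change of 0.11 (adjusted p = 0.484). Of 7 fatty acid synthesis genes, edgeR called 0, with an unadjusted p under 0.05 for 3, while DESeq2 and limma-voom each called 1 lower, Acly. The edgeR values were -0.92 at Acly (adjusted p = 0.0205), which supplies cytosolic acetyl-CoA, and -0.62 at Elovl6 (adjusted p = 0.0718). Scd1, a fatty acid desaturase, was at 0.55 (adjusted p = 0.107) and Srebf1 at 0.38 (adjusted p = 0.115), and with library totals Srebf1 was called higher, at 0.64.

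Markers of several cell types moved with the diet. Of 8 hepatocyte markers 5 were lower and 1 was higher, and their summed level was 70151 to 129628 CPM on the control diet and 39520 to 97090 CPM on the high-fat diet. Of 5 recruited macrophage markers 5 were higher, with summed levels of 17.3 to 52.5 against 97.0 to 239 CPM and the 2 largest log2 fold changes at Gpnmb (5.49) and Trem2 (3.47). Markers of stellate cells and myofibroblasts were higher in 5 of 8 (81.1 to 316 against 233 to 744 CPM), of cholangiocytes in 3 of 4 (4.78 to 13.99 against 5.28 to 151), of resident macrophages in 1 of 5 (109 to 468 against 170 to 779), of sinusoidal endothelial cells in 1 of 4 (102 to 219 against 93.4 to 266) and of T cells in 0 of 4 (0.453 to 7.06 against 1.44 to 4.90), and none of those lists had a lower marker. For T cells edgeR gave 0 markers also at an unadjusted p under 0.05. No marker was at 0 in every library. The hepatocyte markers had a median log2 fold change of -0.56, and in whole liver fewer cells of a type and less RNA per cell cannot be told apart. The part of cell makeup in the members' values was not tested.

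Some members share sequence with other genes. Acat3 matched Acat2 at 97.7% over 1477 bases and had 3223 to 6406 counts per library, more than Acat2 with 380 to 1539. Acat3 had a log2 fold change of -0.07 (SE 0.101, adjusted p = 0.6), and reads that could be split between the pair make the value of Acat2 uncertain. Tcp1, whose transcripts share 445 bases with Acat2, had a log2 fold change of -0.37 (SE 0.0782, adjusted p = 0.000641), under the fold threshold. Idi1 has a processed pseudogene, Gm13502, that matched it at 100% over 684 bases and took 0 to 175 counts, and a second, Gm35570, at 97.7% over 681 bases with 1 to 62 counts. Gm13502 fell by 2.58 and Gm35570 by 2.02 on the log2 scale (adjusted p = 0.00182 and 7.68e-05). Idi1 summed with both was at 17.5% of the control mean on the high-fat diet, against 17.4% without them. Acat2 summed with Acat3 was at 89.1% of the control mean, against 62.5% for Acat2 alone. Idi2, a related gene, had counts in 2 libraries, at most 1 count, and was not tested.

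Fdft1 shares 774 exon bases with Ctsb, a lysosomal protease gene on the opposite strand with 8202 to 33288 counts per library. Ctsb rose by 0.54 on the log2 scale (SE 0.0933, adjusted p = 7.26e-05), the opposite direction to Fdft1. Fdft1 summed with Ctsb was at 137.5% of the control mean, a sum made up mostly of Ctsb. Ggps1 shares 257 exon bases with Arid4b on the opposite strand, which fell by 0.56 (SE 0.0877, adjusted p = 2.54e-05) and had 166 to 369 counts against 53 to 125 for Ggps1. Whether the counting used strand is not given in the sources used here, and without it reads of such partners cannot be told apart. Hmgcs1 shares 557 exon bases with the antisense gene Gm48342, which had 2 to 37 counts. Fdps shares 1124 exon bases with Gm43738 on the same strand, which had 0 to 11 counts.

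**Figure D3:**
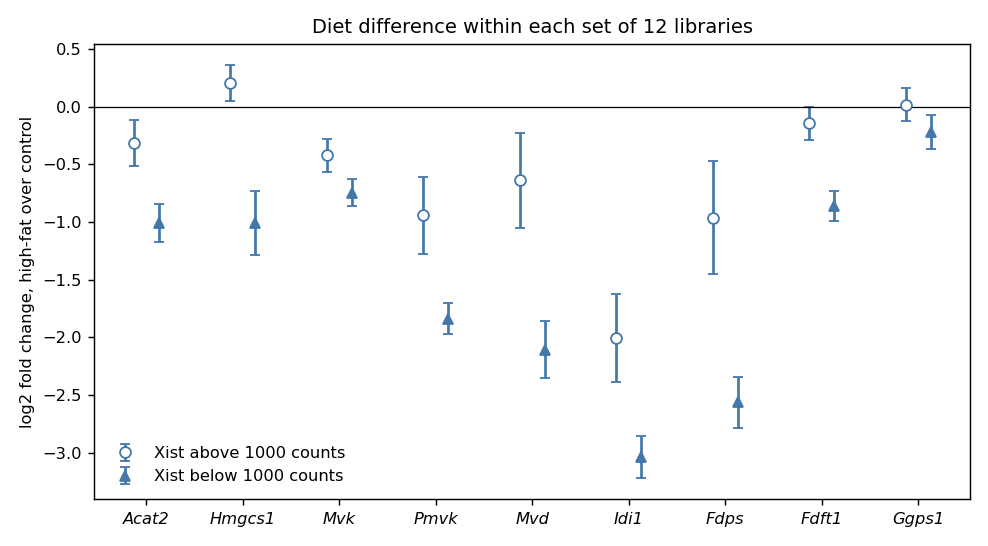
Log2 fold changes between the diets with their standard errors, fitted within the 12 libraries with Xist above 1000 counts (circles) and within the 12 below (triangles). In all 9 members the value was more negative in the low-Xist set, and the difference passed the test for Hmgcs1 and Fdft1.

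The diet difference was compared between the sets of libraries. The choice of the members used the diet difference but not its difference between sets. Over all genes, calls between diets numbered 1431 lower and 2572 higher in the low-Xist set, against 158 and 520 in the high-Xist set. Genes chosen as lower on the diet can be more negative in the low-Xist set for that reason. The shares of all genes below are therefore not a matched baseline. In the set with low Xist counts the log2 fold changes ran from -0.22 at Ggps1 to -3.04 at Idi1, and in the set with high counts from 0.21 at Hmgcs1 to -2.002 at Idi1. The difference between the sets, tested as the diet by set interaction in edgeR over all genes, was more negative in the low-Xist set for 9 of 9 members, against 52.6% of all genes. At an adjusted p of at most 0.05 it was called for 2 of the 9 members, and 4.04% of all genes were called in that direction. The median difference over the members was -0.90, and that over all genes -0.03. An unadjusted p under 0.05 was reached by 7 of the 9.

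Hmgcs1, the larger of the 2 differences called, overlapped between diets in both sets. In the low-Xist set its levels were 54.2, 96.5 and 206 CPM (lowest, median and highest of 6) on the control diet and 37.5, 57.8 and 60.9 CPM on the high-fat diet. In the high-Xist set they were 60.2, 64.8 and 95.7 CPM on the control diet and 64.0, 72.8 and 118 CPM on the high-fat diet. The log2 fold changes were -1.01 (SE 0.278) and 0.21 (SE 0.156), and differed by -1.23 (SE 0.339, adjusted p = 0.0208). Fdft1 had a log2 fold change of -0.86 (SE 0.129) in the low-Xist set and -0.15 (SE 0.14) in the other, a difference of -0.72 (SE 0.199, adjusted p = 0.0207). In the low-Xist set the levels of Fdft1 were 87.3, 106 and 121 CPM on the control diet and 46.9, 55.6 and 70.6 CPM on the high-fat diet, with no overlap. In the high-Xist set they were 79.3, 85.6 and 90.2 against 42.4, 83.0 and 88.2 CPM, with overlap.

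For the other members the difference between the sets missed the threshold. It was -1.61 at Fdps (SE 0.588, adjusted p = 0.0835), -1.48 at Mvd (SE 0.53, adjusted p = 0.077), -1.04 at Idi1 (SE 0.456, adjusted p = 0.157) and -0.90 at Pmvk (SE 0.392, adjusted p = 0.152). Acat2 differed by -0.70 (adjusted p = 0.115), Mvk by -0.33 (adjusted p = 0.285) and Ggps1 by -0.25 (adjusted p = 0.477). The calls moved with single libraries. Without high-fat replicate 3 the test called 7 members, which added Acat2, Mvk, Mvd, Idi1 and Fdps, and without control replicate 5 it called 4, which added Pmvk and Fdps. Without high-fat replicate 4 the differences of Mvd and Fdps were smaller, at -0.85 and -1.22, and the 2 called members were again Hmgcs1 and Fdft1. Without control replicate 2 the difference of Ggps1 was -0.16. When libraries were scaled by their totals alone, the test called 0 of the 9 members, with an unadjusted p under 0.05 for 3, and the differences of Mvk (0.02) and Ggps1 (0.10) turned positive.

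The levels behind these values differed on both diets. On the control diet the mean of the low-Xist set was the higher one for 9 of 9 members, by 2.23-fold at Fdps (430 against 193 CPM), 1.72-fold at Mvd and 1.58-fold at Hmgcs1. On the high-fat diet the mean of the low-Xist set was the lower one for 8 members, all but Mvk, as at Fdps with 71.9 against 98.3 CPM. In the low-Xist set every high-fat library was below every control library for all members but Hmgcs1 and Ggps1, a separation that 9.66% of all genes showed. In the high-Xist set Mvk and Idi1 alone among the 9 separated in this way, against 2.39% of all genes. Both separations are part of the diet difference known when the members were chosen, so they are a description and carry no test. Among the squalene to cholesterol enzymes the interaction was called for 6 of 11, all more negative in the low-Xist set, with Msmo1 at -1.75 (SE 0.364, adjusted p = 0.00295).

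**Figure D4:**
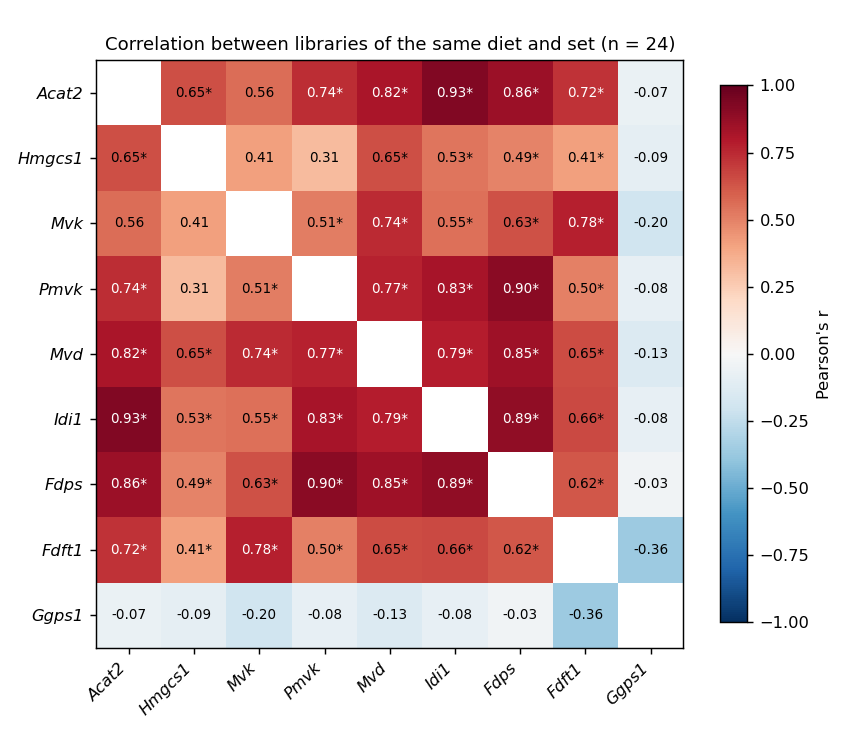
Pearson's r between each pair of members over 24 libraries, after the mean of each diet and set was subtracted, with an asterisk where the permutation p adjusted over 36 pairs was at most 0.05. The block without Ggps1 ran from 0.31 to 0.93, and the 8 pairs with Ggps1 from -0.36 to -0.03.

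Variation between libraries of the same diet and set, also not used in the choice, was shared by most of the arm. After the mean of each diet and set was subtracted from log2(CPM + 1), 25 of the 36 pairs of members were correlated across the 24 libraries by Pearson's r and 20 by Spearman's rho (two-sided permutation tests within diet and set, 100000 resamples, adjusted p at most 0.05 over 36 pairs). All 25 lay among the 28 pairs without Ggps1, whose r had a median of 0.66. Ggps1 had r of -0.36 to -0.03 with the other members, and 0 of its 8 pairs passed. With 53 to 125 counts per library and little spread, counting error could hide a correlation of Ggps1. Its pairs therefore cannot show whether it varies apart from the arm. The points of each pair come from the same libraries and share their scaling.

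Acat2, at the first step, and Idi1, at the isomerase step, had the highest correlation, with r = 0.93 (permutation p = 1e-05, adjusted p = 9e-05) and rho = 0.92 (permutation p = 1e-05, adjusted p = 0.00036), where 1e-05 is the smallest p these permutations can give. Leaving out the 2 libraries with the most extreme values of Acat2 gave r = 0.87. Pmvk and Fdps had r = 0.90 (permutation p = 1e-05, adjusted p = 9e-05) and rho = 0.87 (permutation p = 6e-05, adjusted p = 0.000432), and r = 0.88 without the 2 farthest libraries. All 6 pairs among Pmvk, Mvd, Idi1 and Fdps passed, with r of 0.77 to 0.90.

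The correlations were uneven between diets and leaned on a few libraries. In the 12 high-fat libraries alone 24 of the 36 pairs passed, and in the 12 control libraries alone 3 passed. The difference between the diets was not tested. The median r over the 28 pairs without Ggps1 was 0.85 in high-fat libraries and 0.56 in control libraries. With the 2 farthest libraries left out of each pair 15 pairs passed, and without high-fat replicate 3, the lowest library for most members, 18 passed. The largest drops were in pairs with Mvk or Fdft1, as Fdps and Fdft1 from 0.62 (permutation p = 0.0084, adjusted p = 0.0159, rho = 0.55, permutation p = 0.00347, adjusted p = 0.00833) to 0.28, so that relation rests on those libraries. Acat2 and Mvk had r = 0.56 (permutation p = 0.0404, adjusted p = 0.0542) and rho = 0.31 (permutation p = 0.182, adjusted p = 0.234), and r = 0.13 without the 2 farthest libraries.

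**Figure D5:**
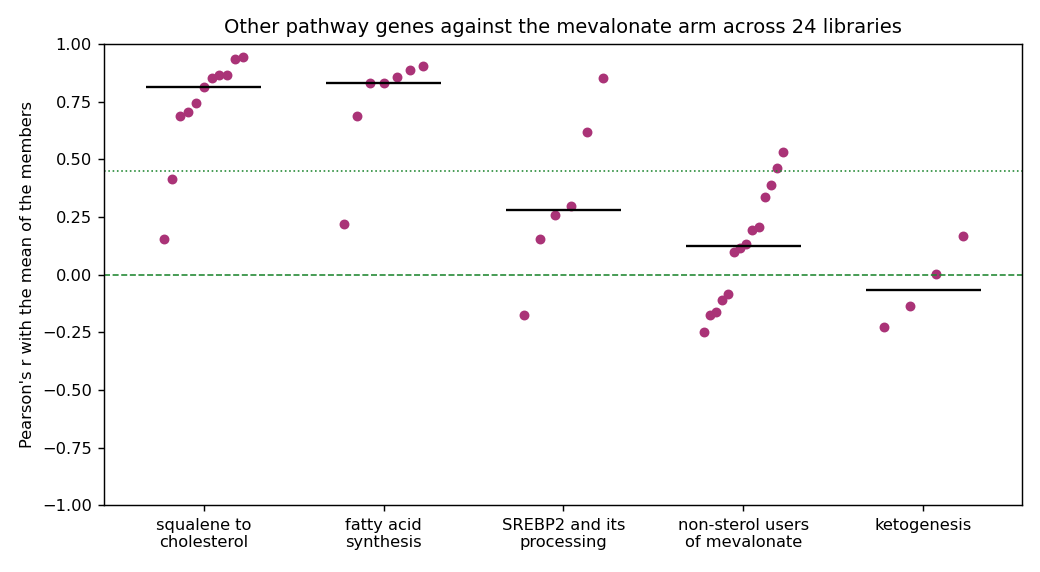
Pearson's r of other pathway genes with the mean of the 9 members over 24 libraries, after subtracting the mean of each diet and set, 1 point per gene with a line at each list's median. The dashed line is the median of 13908 genes (-0.002) and the dotted line their 95th percentile (0.45), and most squalene and fatty acid genes lie above it.

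The genes most like the arm were ranked by their correlation with the mean of the 9 members, each scaled to an SD of 1, across the 24 libraries within diet and set, over the 13908 genes that averaged 10 or more counts. The first 5 were Msmo1 (r = 0.94), Cyp51 (0.94), Rdh11 (0.91), Me1 (0.91) and Elovl6 (0.89). Msmo1 and Cyp51 act on sterols after lanosterol, Rdh11 is a retinol dehydrogenase, and Me1 and Elovl6 serve fatty acid synthesis as malic enzyme and a fatty acid elongase. The values are descriptions over libraries that share their scaling, and the 95th percentile of all genes ranked was 0.45.

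The squalene to cholesterol enzymes had a median r of 0.81 with the arm, from 0.15 at Ebp to 0.94 at Msmo1. Fatty acid synthesis genes had a median of 0.83, with Fasn, the fatty acid synthase, at 0.86, Acly at 0.83 and Srebf1 lowest at 0.22. Thus 6 of these 7 genes lay above the 95th percentile of all genes in their likeness to the arm. Insig1 had r = 0.85 and Srebf2 0.62, and Scap, which was called lower, 0.30. The median was 0.12 for the enzymes that use mevalonate products outside sterols and -0.07 for ketogenesis, beside -0.002 for all genes ranked.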

How the data were processed

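Whole-liver RNA-Seq of 24 libraries, 12 per diet, was analysed. The authors deposited whole-number read counts for 56205 Ensembl genes, without normalization. The submitters' processing notes name bcl2fastq, STAR 2.7.3a and mm10, and the counting program and its annotation are not given in the sources used here. GENCODE M21 (GRCm38, the assembly of mm10) gave symbols for 51745 IDs, positions and summed exon lengths, and the other 4460 IDs held 0.0723% of the counts. Diets came from the labels. Libraries of the same diet differed by more than sampling noise (chi-square per degree of freedom at least 9.47). The stated design of 6 mice per diet and sex matches 12 libraries per diet. The labels themselves do not say that replicates were separate mice, so p-values measure the spread between these libraries.

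Log2 fold changes came from edgeR 4.0.16 in R 4.3.3 (TMM, quasi-likelihood fit, diet as the only term) over 17913 genes (1 or more counts in 12 or more libraries), with Benjamini-Hochberg adjustment. Standard errors were derived from the F statistic (log2 fold change over the root of F). On simulated counts for these 17913 genes the diet test recovered 74% of genes changed by 1 on the log2 scale and 92% of those changed by 2, and the interaction test 48% and 76%. Correlations used log2(CPM + 1). Similar transcripts were found with blastn 2.17.0 (at least 90% identity over at least 200 bases).

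The members and lists were chosen with earlier results of these data known. Named genes were the 9 members, the called genes of the 6 lists or otherwise the 2 with the largest fold change, the 2 marker genes with the largest fold change, the 5 genes most like the members, and Xist. Other list genes and the genes that overlap or resemble members were named after their values were seen. Alternatives were DESeq2 1.42.0, limma-voom (limma 3.58.1), other scalings, filters and thresholds, the replicate number as a block, a surrogate variable from sva 3.50.0, the Xist sets, and each library left out. Chosen after seeing the data were the alternatives of the interaction test and the fit without 3 libraries. Libraries with the same number were not treated as pairs, since the labels do not say that a number marks a shared animal, litter or batch. The results of some list genes are not reported here.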

Additional observations from a re-analysis of the deposited data

Results flagged for a closer look

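The diet difference of Hmgcs1 was more negative in the libraries with low Xist counts than in those with high Xist counts, by -1.23 on the log2 scale (diet by set interaction in edgeR, adjusted p = 0.0208). The same difference was -0.719 for Fdft1 (adjusted p = 0.0207). Hmgcs1 was lower on the high-fat diet in 1 set and had a log2 fold change of 0.21 in the other, while Fdft1 was below 0 in both. Neither difference passed the test when libraries were scaled by their totals alone, with -0.94 for Hmgcs1 (adjusted p = 0.0794) and -0.38 for Fdft1 (adjusted p = 0.227). With the replicate number as a block, a fit added after seeing the data, Hmgcs1 missed the threshold (-1.07, adjusted p = 0.0605) and Fdft1 passed it (-0.69, adjusted p = 0.0328). The sets coincide with the replicate numbers, so sex and any order of handling cannot be told apart.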

How the results depend on the processing

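The count of members called lower, 7, stayed between 6 and 7 with each library left out and under every other setting tried except 3: it was 4 with library totals as the scaling, 4 with an absolute log2 fold change over 1, and 1 within the high-Xist set. With library totals the median of all genes moved from -0.03 to 0.26, and 94.4% of all calls were higher against 72.6% with TMM (226 lower and 3827 higher against 894 and 2372). Over all genes a fold threshold of 1 left 216 lower and 1690 higher, the adjusted p of 0.05 alone gave 3388 and 3709, the high-Xist set 158 and 520, and the low-Xist set 1431 and 2572. Ggps1 turned to 0.17 with library totals and 0.0173 within the high-Xist set, where Hmgcs1 turned to 0.21. Same-numbered libraries of the 2 diets had correlations of -0.09 to 0.53 between their deviations from the diet means, over 0.1 in 11 of 12. With set means also removed 2 of 12 were over 0.1. With diet means alone removed, 6 of 24 libraries correlated best with their own number. With the replicate block 844 genes were lower and 2063 higher. It called 7 members lower, with Idi1 at -2.57, changed no member's call between diets, and called 1 member (Fdft1) for the difference between sets, with Hmgcs1 at -1.07 (adjusted p = 0.0605). 0 members were called higher under any setting.

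Library totals called 0 members for the difference between sets, against 2, and turned Mvk to 0.0172 and Ggps1 to 0.0998. With each library left out the count ran from 2 to 7. Library totals also left 0 lower among the enzymes outside sterols and 0 lower among SREBP2 and its processing, and 1 higher in fatty acid synthesis, while limma-voom left 0 lower outside sterols and gave 1 lower in fatty acid synthesis, as did DESeq2 (1). With each library left out, 0 to 1 were lower outside sterols and 1 higher, 1 to 2 lower in SREBP2 processing, 0 to 2 lower in fatty acid synthesis, and 10 lower from squalene to cholesterol, of which library totals left 8. Pairs of members correlated numbered 3 in control libraries only, 15 without the 2 farthest libraries, and 18 to 27 with each library left out. At this depth the lowest members, Mvd with 22 to 492 counts and Ggps1 with 53 to 125, carry the largest counting error.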
